A study of Mus musculus with 16 samples.

Results

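Private sites were the day 1 binding summits of Oct4defSox2 (YR in the labels), an Oct4 mutant built to disrupt dimerisation with Sox2, that had no counterpart in the lists of the other Oct4-antibody libraries of the study. A site was called private when no summit of Oct4 at days 1, 5 or 7, of Oct4defSox2 at day 5 or of Oct4 S151M at day 1 lay within 100 bp. The members were thus chosen on measured values, namely presence in 1 Oct4-antibody list and absence from 5 others. On chromosomes 1 to 19, X and Y, 16452 of the 31060 Oct4defSox2 summits met this rule, and the other 14608 are called shared. The lists of all 13 ChIP libraries held 227116 summits.

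The study compared how POU factors that can and cannot support reprogramming occupy the genome. OG2-MEFs, mouse embryonic fibroblasts with an Oct4 promoter GFP reporter, received retroviruses for Sox2 and Klf4 (SK) and for 1 POU factor, and were grown in the chemically defined iCD1 medium, with days counted from the medium change. All cells therefore carried introduced Sox2 and Klf4, and each library averaged over the cells of a culture. The groups used here were Oct4 antibody in Oct4-SK cells (days 1, 5 and 7), in Oct4defSox2-SK cells (days 1 and 5) and in Oct4 S151M-SK cells (day 1), a mutant made to favour homodimers, Sox2 antibody in the cocktails with Oct4, with Oct6 and with Oct4defSox2 (days 1 and 5 each), and Oct6 antibody in Oct6 M151S-SK cells, which were day 1 by title and day 2 by another label. The paper's methods name Sox2 antibodies from different suppliers without saying which library had which. The Sox2 libraries compared here may thus also differ in antibody. Each group had 1 library, so there was no replicate error and no p-value was computed. Shares of sites are given with Wilson 95% intervals and differences in percentage points with 95% intervals by Newcombe's method, which was used in its paired form for a pair of libraries scored over one set of sites. Such intervals hold only the counting error over sites, so they compare libraries, not conditions.

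The files analysed gave no read depth, and the number of summits stood in for yield. The Oct4defSox2 day 1 list (31070 summits, 10 of them on other sequences) was larger than those of Oct4 (8216, 4854 and 3638 at days 1, 5 and 7) and of Oct4defSox2 at day 5 (1038). The Oct4 S151M list was the longest with 101170 summits. The Sox2 lists held 15222 and 5832 summits in Oct4-SK cells, 3242 and 2673 in Oct6-SK cells and 5794 and 21563 in Oct4defSox2-SK cells, at days 1 and 5. Absence of a summit within 100 bp means absence from a list called at a fixed threshold, and it depends on the yield of that library.

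Oct4 and Sox2 are transcription factors of the POU and HMG-box families that can bind side by side on a composite element, called SoxOct here, in enhancers of pluripotent cells. POU factors also bind a single octamer as monomers and the palindromic MORE element as homodimers. AP-1 (Fos and Jun dimers), TEAD and RUNX factors occupy many enhancers of fibroblasts, and Klf4 binds GC-rich elements near promoters.

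A few private sites from the named sets show what lay under the summits. All are GRCm38 sequence, written 5′ to 3′ on the strand of the match, with the matched motif in capitals. The first 2 lie under high-scoring private summits with a SoxOct match, in an intron of Aff2 (chrX:69745123-69745217, minus strand) and between genes near Gsx1 (chr5:147223660-147223754, minus strand). Both matches had 2 mismatches to the consensus, which accepts more than 1 base at some positions. The third holds the MORE match under the highest-scoring private summit, in an intron of Nbea (chr3:56159461-56159552, plus strand), with 1 mismatch to a consensus that likewise accepts either of 2 bases at 2 positions. The fourth is a perfect octamer in an intron of the gene model Gm29536 (chr1:79141816-79141903, plus strand), under the highest-scoring private summit over 1 kb from any other Oct4-antibody summit. The fifth is a Sox match near Tns3 (chr11:8723325-8723411, plus strand), the sixth an AP-1 match near Crhr2 at a site with Sox2 (chr6:55146536-55146622, plus strand), and the last a palindromic octamer-like match, a word chosen after the data were seen, under the second-highest summit in an intron of Fat4 (chr3:38908828-38908915, plus strand).
Aff2 SoxOct: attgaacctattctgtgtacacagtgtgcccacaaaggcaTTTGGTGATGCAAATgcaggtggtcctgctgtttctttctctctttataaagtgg
Gsx1 SoxOct: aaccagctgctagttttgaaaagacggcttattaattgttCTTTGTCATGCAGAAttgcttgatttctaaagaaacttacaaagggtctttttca
Nbea MORE: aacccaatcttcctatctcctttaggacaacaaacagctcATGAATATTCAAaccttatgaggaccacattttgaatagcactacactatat
Gm29536 octamer: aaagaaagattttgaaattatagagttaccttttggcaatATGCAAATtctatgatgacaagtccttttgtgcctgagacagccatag
Tns3 Sox: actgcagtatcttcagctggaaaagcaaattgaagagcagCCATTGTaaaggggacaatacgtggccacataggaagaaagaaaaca
Crhr2 AP-1: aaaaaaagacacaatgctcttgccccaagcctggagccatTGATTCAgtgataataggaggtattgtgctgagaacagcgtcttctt
Fat4 palindrome: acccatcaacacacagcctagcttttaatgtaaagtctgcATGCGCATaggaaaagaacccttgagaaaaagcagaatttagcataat

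Private sites were mostly weak and mostly solitary. Their score, the authors' −log10 p-value, had a median of 9.43 with quartiles of 7.00 and 12.9 and a highest value of 105. Shared sites had a median of 15.5, quartiles of 9.92 and 27.0 and a highest value of 664. A score of at least 10 was reached by 7324 private sites (44.5%) and by 10892 shared sites (74.6%). Since the members were selected from this list, these scores are a description.

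The library that removed most sites from membership was Oct4 S151M, which had a summit within 100 bp of 13496 Oct4defSox2 sites and was the only match for 8346 of them. Oct4 in Oct4-SK cells on any day matched 6086 sites. Oct4defSox2 at day 5, with its short list, matched 729. Without the Oct4 S151M list in the rule 24798 sites would be private.

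Most private sites lay far from the threshold. The nearest other Oct4-antibody summit was 3154 bp away in the median, and 10684 sites (64.9%) were more than 1 kb from any. Just outside 100 bp, at 101 to 150 bp, there were 1647 private sites with a median score of 10.7, and just inside, at 51 to 100 bp, there were 3543 shared sites with a median of 11.9. A further 884 private summits (5.37%) fell in a called peak that also held a shared summit. The strongest private sites were close to the threshold: 8 of the 10 highest lay within 300 bp of another Oct4-antibody summit, between 108 and 257 bp away.

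Sox2 summits were found at a minority of private sites in every cocktail. The share was highest in cells that carried Oct4defSox2 itself. In the lists as deposited the margin was wide at day 5 and narrow at day 1. The day 1 margin over Oct4-SK changed direction with a distance of 50 bp and without Oct4 S151M in the rule. At day 1 a Sox2 summit lay within 100 bp of 1567 private sites in Oct4defSox2-SK cells (9.52%, 9.09 to 9.98), of 1455 in Oct4-SK cells (8.84%, 8.42 to 9.29) and of 484 in Oct6-SK cells (2.94%, 2.69 to 3.21). Over all 31060 Oct4defSox2 sites these libraries had a summit at 8.73%, 12.7% and 3.97%. At positions 10 kb to either side of the private sites they had a summit at 0.0851%, 0.179% and 0.0365%. Where both were present, the Sox2 summit of Oct4defSox2-SK cells was a median of 41 bp from the private summit.

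At day 5 the cocktails lay further apart in the lists as deposited. Sox2 of Oct4defSox2-SK cells occupied 2539 private sites (15.4%, 14.9 to 16.0), Sox2 of Oct4-SK cells 715 (4.35%, 4.04 to 4.67) and Sox2 of Oct6-SK cells 528 (3.21%, 2.95 to 3.49). The shares over all Oct4defSox2 sites were 13.0%, 5.70% and 3.78%. Private sites were therefore above the background of all sites in both Oct4defSox2-SK libraries and below it in the other 4.

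Set against shared sites, private sites carried Sox2 more often in Oct4defSox2-SK cells and less often in Oct4-SK and Oct6-SK cells. In Oct4defSox2-SK cells at day 1 the shared level was 7.83% and the difference 1.69 points (1.07 to 2.32), which became 0.223 points (−0.674 to 1.06) when Oct4 day 1 alone decided membership. At day 5 the shared level was 10.4% and the difference 5.08 points (4.34 to 5.82). In Oct4-SK cells it was −8.27 points (−9.02 to −7.52) at day 1, where 17.1% of shared sites had Sox2, and −2.87 points (−3.39 to −2.35) at day 5, where 7.22% did. In Oct6-SK cells the shared levels were 5.12% and 4.43%, with a difference of −2.18 points (−2.62 to −1.74) for day 1 and of −1.22 points (−1.65 to −0.793) for day 5. The sizes moved with the lists used, while the directions held in these settings. With equal Sox2 lists, each held to its 2673 strongest summits, the differences were 0.925 and 1.61 points at days 1 and 5 in Oct4defSox2-SK cells and −4.76 points in Oct4-SK cells at day 1. Without Oct4 S151M in the rule they were 3.07 points in Oct4defSox2-SK, −7.19 points in Oct4-SK and −2.88 points in Oct6-SK cells, all at day 5. From Oct4 day 1 alone the Oct4-SK differences were −15.9 and −6.61 points and the Oct6-SK ones −4.59 and −2.48 points.

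**Figure D1:**
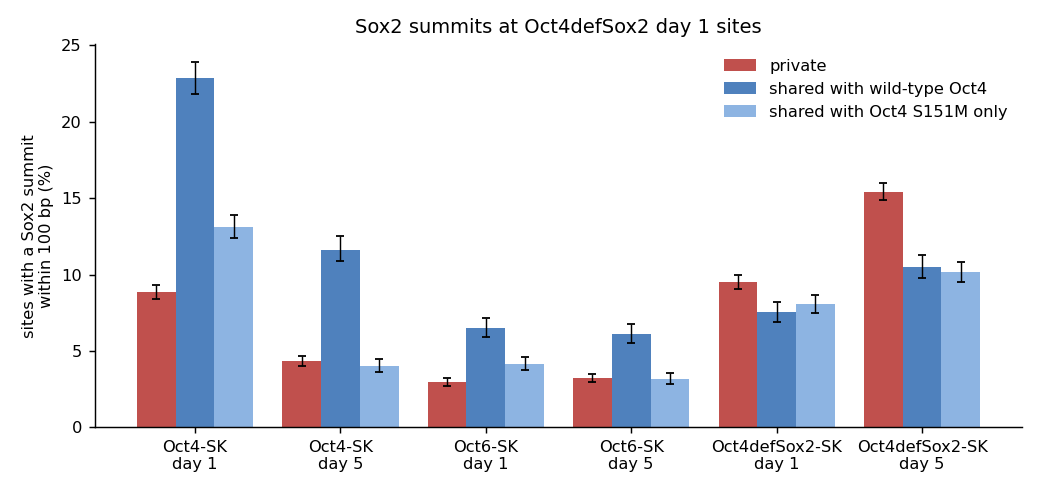
Percent of Oct4defSox2 day 1 sites with a Sox2 summit within 100 bp (vertical axis) in 6 Sox2 libraries, for private sites, sites shared with wild-type Oct4 and sites shared with Oct4 S151M only. Bars are shares and lines are Wilson 95% intervals. Private sites are highest in both Oct4defSox2-SK libraries (9.52% and 15.4%), and sites shared with wild-type Oct4 are highest in Oct4-SK at day 1 (22.9%).

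The 2 classes of shared sites shown, which cover most but not all shared sites, differed from each other in Oct4-SK cells. In Oct4-SK cells at day 1, Sox2 occupied 22.9% (21.8 to 23.9) of the 6086 sites shared with wild-type Oct4 and 13.1% (12.4 to 13.9) of those shared with Oct4 S151M only, against 8.84% of private sites. At day 5 the last 2 classes were at 4.05% (3.65 to 4.49) and 4.35%, with intervals that overlapped. In Oct4defSox2-SK cells at day 5, both shared classes were near 10% (10.5%, 9.79 to 11.3, and 10.2%, 9.54 to 10.8), below the private 15.4%.

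Since private sites scored lower, shares were also standardised over deciles of the Oct4defSox2 score. The private excess then widened in Oct4defSox2-SK cells, reaching 4.75 points (4.16 to 5.34) for day 1 and 7.52 points (6.76 to 8.29) for day 5. The Oct4-SK day 1 difference shrank to −2.99 points (−3.75 to −2.23). The Oct4-SK day 5 and Oct6-SK day 1 differences no longer exceeded counting error, at −0.261 and −0.143 points, and that of Oct6-SK at day 5 changed direction, to 0.599 points (0.199 to 1.000).

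Sox2 occupancy rose with the strength of the private summit. In the lowest decile, with scores of 4.00 to 5.97, Sox2 of Oct4defSox2-SK cells at day 1 was at 3.44% (2.79 to 4.24) of 2442 private sites. In the highest, with scores of 32.0 and more, it was at 26.5% (21.6 to 32.0) of 272 private sites and at 12.7% (11.5 to 13.9) of 2834 shared sites. Sox2 of Oct4-SK cells at day 1 went from 3.85% (3.16 to 4.69) to 29.0% (24.0 to 34.7) over the same private deciles, and the interval of the highest overlapped that of shared sites, which were at 27.2% (25.6 to 28.8).

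**Figure D2:**
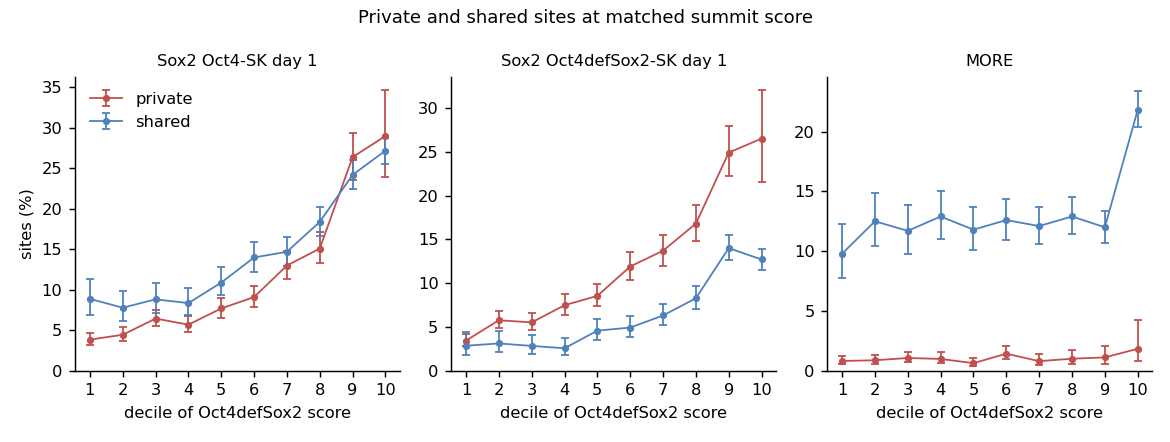
Percent of private and shared sites (vertical axis) with a Sox2 summit of Oct4-SK day 1, a Sox2 summit of Oct4defSox2-SK day 1 or a MORE match, by decile of the Oct4defSox2 score (horizontal axis); points are shares and lines are Wilson 95% intervals. Sox2 is more frequent in the highest decile than in the lowest in both classes. At shared sites, Sox2 of Oct4defSox2-SK stays between 2.57% and 3.12% over deciles 1 to 4, and is at 14.0% in decile 9 and 12.7% in decile 10. MORE stays between 0.638% and 1.84% of private sites in every decile.

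The 3 cocktails were next compared at the same private sites. At day 1 the Oct4-SK share was below the Oct4defSox2-SK share by a narrow margin, a difference of −0.681 points (−1.22 to −0.138). This order was not stable: it became 0.230 points (−0.192 to 0.652) with a distance of 50 bp and 1.25 points (0.797 to 1.70) when Oct4 S151M was not used to define private sites, and it widened to −1.82 points with 250 bp, −2.13 points for sites over 1 kb away and −2.34 points (−2.73 to −1.96) with equal Sox2 lists. Oct6-SK was below Oct4defSox2-SK by a difference of −6.58 points (−7.06 to −6.11), and Oct4-SK was above Oct6-SK by 5.90 points (5.44 to 6.38). With equal lists, Oct6-SK minus Oct4defSox2-SK was −2.77 points (−3.15 to −2.39) and Oct4-SK minus Oct6-SK 0.425 points (0.0986 to 0.754).

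At day 5 Oct4-SK was below Oct4defSox2-SK, with a difference of −11.1 points (−11.6 to −10.5), and so was Oct6-SK, with −12.2 points (−12.8 to −11.7). These sizes followed the yields of the lists. With each Sox2 list held to its 2673 strongest summits the first was −2.26 points (−2.61 to −1.92) and the second −1.71 points (−2.05 to −1.37). Oct4-SK exceeded Oct6-SK by 1.14 points (0.796 to 1.48), a difference that changed direction with equal lists, to −0.553 points (−0.857 to −0.252).

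Between days 1 and 5 the private sites lost Sox2 summits in Oct4-SK cells and gained them in Oct4defSox2-SK cells. The day 5 minus day 1 difference was −4.50 points (−4.99 to −4.01) in Oct4-SK cells, 0.267 points (−0.0852 to 0.621) in Oct6-SK cells and 5.91 points (5.29 to 6.53) in Oct4defSox2-SK cells. With equal lists the Oct4-SK difference was −0.365 points (−0.695 to −0.0360), and that of Oct4defSox2-SK changed direction, to −0.444 points (−0.863 to −0.0248). The changes between days cannot be told apart from those in the number of summits called.

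The share of sites that kept Sox2 was highest in Oct4defSox2-SK cells, whose day 5 list was the longest. Of the 1567 private sites with Sox2 in Oct4defSox2-SK cells at day 1, 675 still had it at day 5 (43.1%, 40.6 to 45.5). In Oct4-SK cells 218 of 1455 did (15.0%, 13.2 to 16.9), and in Oct6-SK cells 69 of 484 (14.3%, 11.4 to 17.7). Shared sites kept Sox2 in 43.0% of cases (interval 40.2 to 45.9) in the first of these cocktails, 21.1% (19.6 to 22.8) in the second and 21.3% (18.5 to 24.3) in the third. With equal lists, an alternative added after the data were seen, the private shares kept were 25.9% (23.1 to 28.8) in Oct4defSox2-SK, 17.5% (14.4 to 21.1) in Oct4-SK and 15.9% (12.8 to 19.7) in Oct6-SK cells, and the shared ones 24.1% (20.9 to 27.5), 22.4% (20.1 to 24.9) and 21.5% (18.5 to 24.8), with intervals that overlapped. In the lists as deposited, Sox2 appeared by day 5 at 12.5% (12.0 to 13.1) of the private sites of Oct4defSox2-SK cells that lacked it at day 1, and at 7.58% (7.14 to 8.03) of such shared sites.

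Few private sites were occupied in all cocktails. At day 1, 996 private sites had Sox2 in Oct4defSox2-SK cells alone and 913 in Oct4-SK cells alone, while 377 had it in both of these but not in Oct6-SK cells. All 3 cocktails had Sox2 at 95 sites at day 1 and at 171 at day 5. At day 5 the class with Sox2 in Oct4defSox2-SK cells alone grew to 1850 sites (11.2%) and that of Oct4-SK cells alone shrank to 192 (1.17%). Across both days and the 3 cocktails 4545 private sites (27.6%) had at least 1 Sox2 summit, 15 had all 6, and 11907 (72.4%) had none. The sites with all 6 had a median Oct4defSox2 score of 23.8, and those with none a median of 8.64.

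Seen from the Sox2 lists, private sites held more summits than shared sites did in both Oct4defSox2-SK libraries and fewer in the other 4. Of the 5794 Sox2 summits of Oct4defSox2-SK cells at day 1, 1570 (27.1%) lay at a private site and 1143 (19.7%) at a shared one. Their median scores were 9.80 and 10.2, above the 7.99 of the 3081 Sox2 summits at neither. Of the 15222 Sox2 summits of Oct4-SK cells at day 1, 1455 (9.56%) lay at private sites and 2498 (16.4%) at shared ones. Private and shared sites held 12.2% and 18.1% of the summits of Oct4-SK cells at day 5, 15.0% and 23.0% of those of Oct6-SK cells at day 1 and 19.8% and 24.2% at day 5. In Oct4defSox2-SK cells at day 5 private sites held 11.8% of the Sox2 summits and shared sites 7.00%, the former with a median score of 14.0, as at shared sites, against 8.17 for those at neither.

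The private sites were poor in POU motifs. In the 201 bp around each summit, SoxOct matches (up to 2 mismatches) were present at 533 private sites (3.24%, 2.98 to 3.52) and at 12.3% of shared sites (11.8 to 12.8), which gives a difference of −9.05 points (−9.65 to −8.45). MORE matches (MORE or its variant with 1 more base, up to 1 mismatch) were present at 160 private sites (0.973%, 0.834 to 1.13) and at 14.0% of shared sites (13.5 to 14.6), with a difference of −13.1 points (−13.7 to −12.5). The octamer ATGCAAAT was present at 1047 private sites (6.36%, 6.00 to 6.75) and 11.6% of shared ones (11.1 to 12.1), which differ by −5.25 points (−5.90 to −4.62). The sizes depended on the lists that decide membership. Without Oct4 S151M, a factor made to favour homodimers, the MORE deficit was −7.93 points (−8.84 to −7.06), that of the octamer −3.38 points (−4.26 to −2.53) and that of SoxOct −13.5 points. From Oct4 day 1 alone they were −7.34, −2.05 and −10.9 points. They also moved with the mismatches allowed: with 1 fewer and 1 more, the SoxOct deficit was −1.94 and −20.5 points and the MORE deficit −3.65 and −26.0 points. Any of the 3 was found at 9.66% (9.22 to 10.1) of private and 33.0% (32.2 to 33.7) of shared sites. Both strands were searched. The octamer overlaps the POU part of SoxOct, and 131 private sites held both.

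The private sites were not devoid of POU motifs when set against windows of the same length 2 kb to either side. SoxOct exceeded this background of 1.23% by 2.01 points (1.72 to 2.32), or by 3.58 points (3.31 to 3.87) without Oct4 S151M in the rule, and the octamer exceeded its background of 1.64% by 4.72 points (4.33 to 5.13). MORE did not exceed its background of 0.851% beyond counting error, with a difference of 0.122 points (−0.0527 to 0.309). It did so with 1 mismatch more, at 2.99 points (2.43 to 3.56), with 1 fewer, at 0.0638 points (0.0101 to 0.133), and when Oct4 S151M was not used for membership, at 4.69 points (4.40 to 4.99). Octamer matches lay a median of 31.5 bp from the private summit, and 48.2% of them within 30 bp, against 35.3% for AP-1 matches.

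MORE declined up to 250 bp of the distance that the rule used, and not beyond. It was found at 16.2% of sites 0 to 50 bp from another Oct4-antibody summit and at 7.39% at 51 to 100 bp. At private sites it was at 2.43% at 101 to 150 bp and at 0.563% between there and 250 bp. Farther away it was at 0.970% up to 500 bp, 0.716% up to 1000 bp and 0.833% beyond. The motif window reached 100 bp from the summit, so it took in sequence at a nearby summit. The part of this overlap in the decline was not tested. The octamer changed less, from 12.5% at 0 to 50 bp to 6.57% of the private sites more than 1 kb away. SoxOct went from 13.6% to 3.28% over the same range.

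Other motifs differed less between private and shared sites. AP-1 (TGANTCA), the most frequent, was at 3428 private sites (20.8%, 20.2 to 21.5) and 21.7% (21.1 to 22.4) of shared sites, with a difference of −0.891 points (−1.80 to 0.0201), and it exceeded its private background of 6.26% by 14.6 points (13.9 to 15.3). Sox (CCATTGT) was at 9.13% of private sites (8.70 to 9.58) and 9.67% of shared ones (9.20 to 10.2), with a difference of −0.543 points (−1.20 to 0.106), and exceeded its background of 3.50% by 5.63 points (5.15 to 6.11). TEAD (GGAATG) was at 14.3% and 13.8%, a difference of 0.513 points (−0.261 to 1.28), against a background of 11.1%. RUNX (TGTGGT) was at 17.6% and 18.9%, a difference of −1.28 points (−2.14 to −0.419), against 13.7%. The RUNX difference was within counting error for sites over 1 kb away, for a score of at least 10 and over score deciles, at −0.727, −0.983 and −0.773 points.

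The KLF and CTCF motifs differed little between private and shared sites. KLF (GGGNGNGGC) was at 4.81% (4.49 to 5.15) of private and 4.12% (3.81 to 4.46) of shared sites, a difference of 0.687 points (0.226 to 1.15), and its background was 2.31%. The KLF difference changed direction when Oct4 S151M was left out of membership, to −0.543 points (−1.16 to 0.0287). The CTCF motif (1 mismatch), that of the insulator protein, was at 1.95% of private and 1.74% of shared sites. Its private share was below the 2.65% of the windows 2 kb away by a difference of −0.702 points (−0.971 to −0.423). No POU, Sox or AP-1 match was found at 10583 private sites (64.3%, 63.6 to 65.1) and 46.6% (45.7 to 47.4) of shared sites. Mean GC content of the windows was 40.2% ± 6.78 (SD, n = 16452) at private and 38.6% ± 6.21 (SD, n = 14608) at shared sites.

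**Figure D3:**
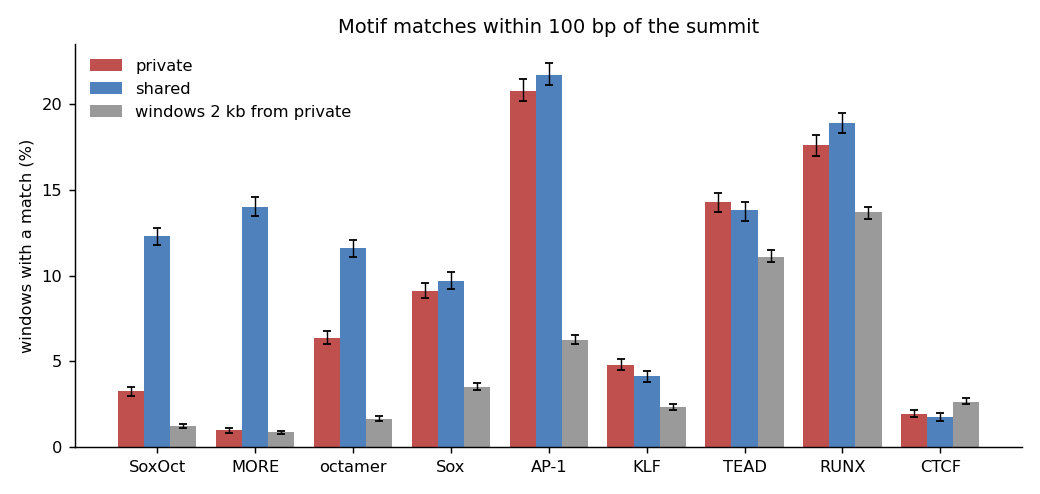
Percent of 201 bp windows with a match (vertical axis) for 9 motifs at private sites, shared sites and windows 2 kb from private sites, with Wilson 95% intervals. SoxOct (3.24% against 12.3%), MORE (0.973% against 14.0%) and the octamer (6.36% against 11.6%) separate private from shared sites, and AP-1 (20.8% and 21.7%) does not.

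Private sites with Sox2 had fewer POU motifs and more Sox motifs than those without. The 1567 private sites with Sox2 in Oct4defSox2-SK cells at day 1 held SoxOct in 18 cases (1.15%, 0.728 to 1.81), the octamer in 24 (1.53%, 1.03 to 2.27) and MORE in 3 (0.191%, 0.0651 to 0.561). The 14885 without Sox2 held them at 3.46%, 6.87% and 1.05%. The SoxOct difference was −2.31 points (−2.83 to −1.59) and the MORE difference −0.863 points (−1.08 to −0.463). With 1 mismatch fewer the MORE difference was within counting error, at −0.134 points (−0.207 to 0.115), and without Oct4 S151M in the rule it was −4.79 points (−5.27 to −4.18). In the windows 2 kb from the Sox2-occupied sites the shares were 1.63% (1.24 to 2.13), 1.79% (1.38 to 2.31) and 0.830% (0.567 to 1.21), so SoxOct and the octamer did not exceed that background and MORE was below it. Shared sites with Sox2 held SoxOct at 6.64% (5.34 to 8.24), the octamer at 3.93%, MORE at 3.67% and Sox at 15.8%, so they too were below all shared sites in POU motifs and above them in the Sox motif.

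The Sox motif was at 16.2% (14.5 to 18.1) of the Sox2-occupied private sites and at 8.38% (7.95 to 8.84) of the others, a difference of 7.83 points (6.02 to 9.78). AP-1 was at 23.6% of them (21.6 to 25.8) and 20.5% of the others (19.9 to 21.2), with a difference of 3.07 points (0.928 to 5.33). The AP-1 difference was within counting error with a score of at least 10 (1.40 points, −1.25 to 4.23) and with equal Sox2 lists (0.266 points, −2.38 to 3.15). KLF was less frequent at Sox2-occupied sites, 3.06% against 4.99%, a difference of −1.93 points (−2.76 to −0.897).

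The private sites that Sox2 occupied in different cocktails differed in their motifs. At day 1 the 983 sites with Sox2 in Oct4-SK but not Oct4defSox2-SK cells held a POU motif in 6.51% (5.13 to 8.23), and the 1095 with Sox2 in Oct4defSox2-SK but not Oct4-SK cells in 2.37% (1.63 to 3.46). The 472 with Sox2 in both held one in 3.39% (2.10 to 5.44). The Sox motif was at 14.0%, 13.9% and 21.6% (18.1 to 25.5) of these classes. At day 5 a POU motif was at 7.39% (4.67 to 11.5) of the 230 sites of the first class and at 2.24% (1.68 to 2.97) of the 2054 of the second. The private sites with no Sox2 in any cocktail at day 1 numbered 13682, and 10.7% of them (10.2 to 11.2) held a POU motif, the highest share among the day 1 classes.

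**Figure D4:**
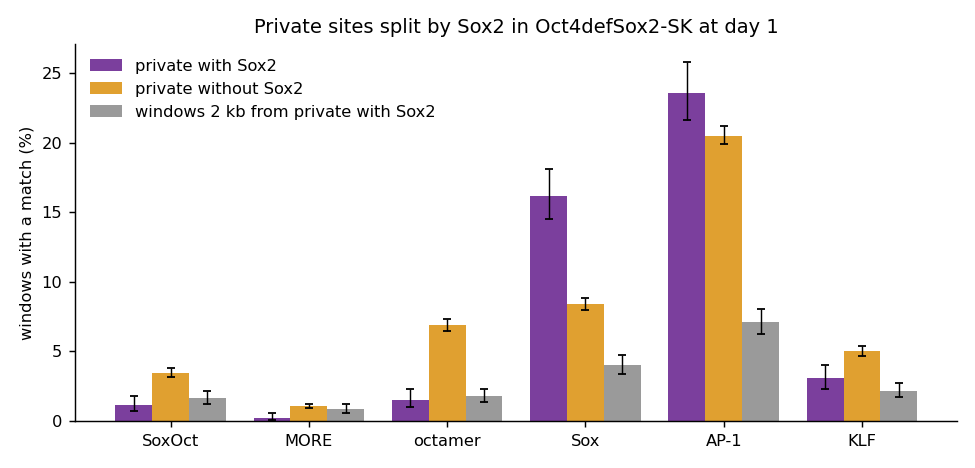
Percent of windows with a match (vertical axis) for 6 motifs at private sites with and without a Sox2 summit of Oct4defSox2-SK cells at day 1, and in windows 2 kb from the sites with Sox2, with Wilson 95% intervals. The Sox motif is at 16.2% of sites with Sox2 and 8.38% of those without, and the octamer at 1.53% and 6.87%.

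Private sites were spread over the genome much as shared sites were. They were distal for the most part: 7200 (43.8%, 43.0 to 44.5) lay between genes, 7693 (46.8%, 46.0 to 47.5) in introns, 409 (2.49%) in exons and 1150 (6.99%, 6.61 to 7.39) within 1 kb of an annotated transcription start. The median distance to a start was 20.1 kb, and 20.9 kb for shared sites. The promoter share exceeded that of shared sites (5.71%, 5.34 to 6.10) by 1.28 points (0.738 to 1.82), and at positions 10 kb away it was 3.99% (3.78 to 4.20). The intron difference was −1.24 points (−2.35 to −0.128), which was within counting error under 4 alternatives (−0.948 to −0.0282 points), and the intergenic one −0.103 points (−1.21 to 1.00).

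The promoter excess over shared sites was 0.358 points (−0.322 to 1.05) among sites with a score of at least 10 and changed direction, to −0.220 points (−0.926 to 0.444), without Oct4 S151M in membership. Sox2-occupied private sites were at promoters less often than the others, 3.38% (2.60 to 4.40) against 7.37% (6.96 to 7.80), a difference of −3.99 points (−4.88 to −2.89). Repeats, shown in lower case in the reference sequence, held 16.4% (15.9 to 17.0) of private and 19.3% (18.7 to 20.0) of shared summits, against 36.4% of the sequenced genome. On chromosomes 1 to 19 and X, private sites made up between 50.6% (chromosome 10) and 54.9% (chromosome 14) of the Oct4defSox2 sites, and chromosome Y had 1 site.

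**Figure D5:**
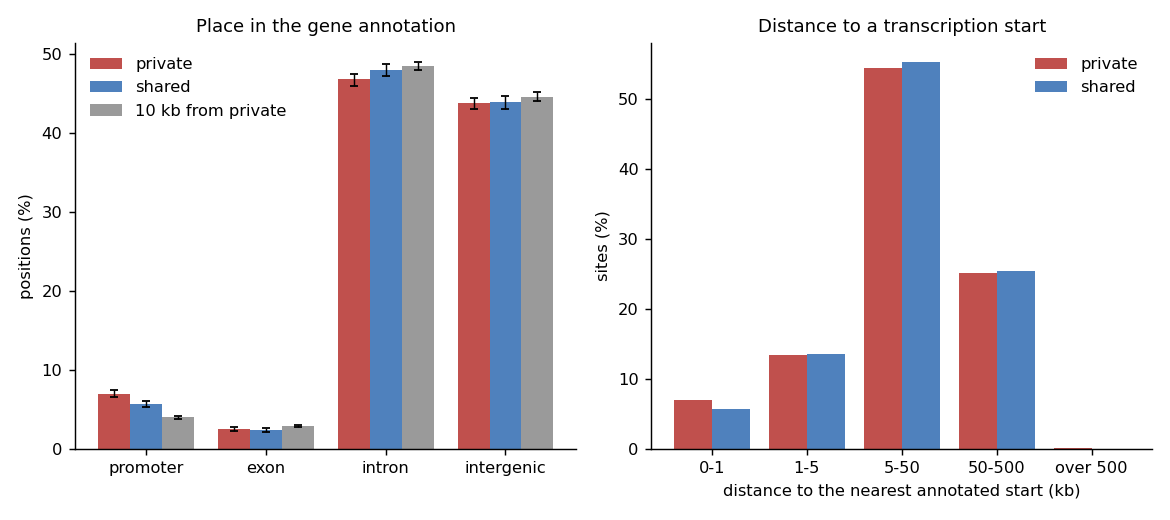
Left, percent of private sites, shared sites and positions 10 kb from private sites in each class of the gene annotation, with Wilson 95% intervals. Right, percent of private and shared sites by distance to the nearest annotated transcription start. Promoter shares are 6.99% and 5.71%, and shares at 1 to 5 kb are 13.4% and 13.5%.

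The 10 highest-scoring private sites were examined in all libraries. The highest, at chr3:56159432-56159632 in an intron of Nbea, a gene for a membrane-trafficking scaffold protein, scored 105 and had no Sox2 summit in any cocktail. The second, at chr3:38908798-38908998 in an intron of Fat4, a gene for an atypical cadherin, scored 80.8 and had none either. The third, at chr4:32176512-32176712, lay between genes 62192 bp from the start of Bach2, a gene for a leucine-zipper repressor, and scored 74.6.

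The Bach2 site carried Sox2 in all 6 libraries. The Sox2 scores were 36.9 and 37.8 at days 1 and 5 in Oct4-SK cells, 9.41 and 36.8 in Oct6-SK cells and 28.8 and 56.9 in Oct4defSox2-SK cells. It held none of the motifs searched. The fourth site, at chr1:160875406-160875606, within 1 kb of the start of Gm24988, a small nucleolar RNA gene, and 30912 bp from that of Rc3h1, scored 73.5 and had Sox2 in 5 of the 6 libraries, with none in Oct4-SK cells at day 5.

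Of the other 6, 2 had no Sox2 summit. The Tns3 site (chr11:8723265-8723465, score 70.8), 58830 bp from the start of this gene for a focal adhesion protein, had Sox2 scores of 17.0 and 31.7 in Oct4-SK cells and of 23.8 in Oct4defSox2-SK cells at day 5. The site at chr11:87449178-87449378 in Tex14, a gene for germ cell bridges, lay within 1 kb of the start of Rnu3b3, one of several near-identical copies of a small nucleolar RNA gene. It scored 69.4 and had Sox2 in Oct4-SK cells at day 1 alone, with a score of 5.54. That at chr19:23829250-23829450 in an intron of Apba1 scored 66.8 and had Sox2 in Oct4-SK cells on both days, with the lower score of 9.11 at day 5, and in Oct4defSox2-SK cells at day 5, with 9.09. The site at chr8:30532945-30533145, whose nearest coding start was that of the phosphatase gene Dusp26, 556426 bp away, scored 66.5. It had Sox2 at day 1 in Oct4-SK cells (16.9) and Oct6-SK cells (24.9). The strongest private summits thus ranged from sites with Sox2 in every library to sites with none. The site in Gm29536 (chr1:79141745-79141945) scored 65.4, and that nearest to Zeb2, 352517 bp from this gene for a mesenchymal repressor (chr2:45469812-45470012), scored 62.8. The last 2 had no Sox2 summit, and they were the 2 of the 10 that lay farthest from another Oct4-antibody summit, at 2407 and 893 bp.

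Other named sites with Sox2 included one at chr6:55146456-55146656, 13542 bp from the start of Crhr2, a hormone receptor gene. It scored 57.5 for Oct4defSox2, was 12898 bp from the nearest other Oct4-antibody summit, and had Sox2 in 5 libraries, with scores from 10.0 in Oct4-SK cells at day 5 to 85.9 in Oct4defSox2-SK cells at day 5. The site at chr2:3280660-3280860, 3452 bp from the start of Nmt2, an N-myristoyltransferase gene, scored 56.4 and had Sox2 in all 6, up to 143 in Oct4defSox2-SK cells at day 5. An intronic site of Plcl1 (chr1:55438090-55438290, score 57.3) had Sox2 in Oct4defSox2-SK cells at day 1, with a score of 16.3, and in no other library. Unlike the Crhr2 site, the Nmt2 and Plcl1 sites lay close to another Oct4-antibody summit, 147 and 148 bp away.

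Sites named for their POU motifs varied in Sox2. The Aff2 SoxOct site (score 55.0) had Sox2 at day 1 in Oct4-SK and Oct4defSox2-SK cells, with scores of 11.6 and 10.4, and at neither day 5. A SoxOct site in Dennd5b (chr6:148992404-148992604, score 47.4) had Sox2 in both of these cocktails on both days, with scores of 7.66 and 10.9 at days 1 and 5 in Oct4-SK cells and of 7.23 at day 1 in Oct4defSox2-SK cells, and its highest in the latter at day 5. The Gsx1 site (score 38.9), near a homeobox gene, had none. Among MORE sites, an intronic one in Rarb, a retinoic acid receptor gene (chr14:16686869-16687069, score 55.0), had Sox2 in all 3 cocktails at day 5 alone, with scores of 23.4, 28.7 and 27.8, and one near Lhfp (chr3:53036592-53036792, score 44.9) had Sox2 in Oct4-SK and Oct4defSox2-SK cells at day 1. The nearest other Oct4-antibody summit was 3724 bp away at Aff2, 279 bp at Dennd5b, 41884 bp at Gsx1, 8872 bp at Rarb and 114 bp at Lhfp.

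Of the private sites, 756 lay within 1 kb of a protein-coding start. The 5 highest were at Plscr3, a scramblase gene (chr11:69846733-69846933, score 52.4), Tmem222 (chr4:133278132-133278332, 48.6), Psmg1, a proteasome chaperone gene (chr16:95990354-95990554, 43.4), Ptprr, a phosphatase gene (chr10:116176244-116176444, 40.7) and Cep41, a centrosomal gene (chr6:30694056-30694256, 39.2). None of these 5 had a Sox2 summit in any of the 6 libraries, unlike the higher-scoring sites near the small nucleolar RNA genes Gm24988 and Rnu3b3. The nearest other Oct4-antibody summit was 120 bp away at Plscr3, 356 bp at Tmem222, 24719 bp at Psmg1, 20370 bp at Ptprr and 17790 bp at Cep41.

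Bodies of protein-coding genes held 7695 private sites (46.8%). Of 21911 protein-coding genes, 3807 (17.4%) had a private site in the body, and 315 had 5 or more. The genes with most had long annotated spans, on which these counts depend. Fgfr2, an FGF receptor gene, had 29 over an annotated span of 2961 kb, but only 2 private sites lay within 50 kb of its starts. Pde4d, a phosphodiesterase gene, had 25 over 1504 kb, and 13 lay within 50 kb of its starts. Magi2 had 21, Lsamp 20, Dmd (dystrophin) and Ptprd 19 each, and Dlg2, Exoc4, Macrod2 and Nrg1 18 each. The density was 9.79 per Mb in Fgfr2, 16.6 in Pde4d, 16.8 in Nrg1 and 24.8 in Exoc4, against 6.04 over the genome. Pde4d held 28 shared sites as well, whereas Nrg1, a growth factor gene, held 6 shared and 18 private sites.

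Genes of 9 lists were searched for private sites within 50 kb of a start, and 62 of 145 (42.8%) had one. The background was 39.4% of all protein-coding genes for private sites and 36.3% for shared sites. Neural progenitor genes (9 of 15, 60%), mesenchymal factors (11 of 19, 57.9%) and TGF-beta pathway genes (8 of 15, 53.3%) were above it. Sox genes (8 of 18, 44.4%) and POU genes (5 of 13, 38.5%) were near it. Collagens (6 of 16, 37.5%), naive pluripotency genes (7 of 20, 35%), epithelial genes (5 of 18, 27.8%) and AP-1 genes (3 of 11, 27.3%) were at or below it. The lists were not tested, and genes with long bodies and several starts have more room for a site.

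Shared sites lay near 11 of the mesenchymal factors, 6 of the neural progenitor genes, 12 of the Sox genes and 9 each of the collagens and naive pluripotency genes, and near 65 of the 145 genes in all. Mesenchymal factors had the most private sites. Runx2, a bone-lineage factor, had 10 private sites near its starts and 2 shared ones, Tead1, a Hippo pathway factor, had 6 and 1, and Cdh2, the N-cadherin gene, had 5 and 5. In the TGF-beta list, Tgfbr2, a receptor gene, had 2 private and 0 shared sites, and the shared count of the list was 3 of 15 genes. Among neural genes Gli3, a Hedgehog effector, had 3 private sites and Dll1, a Notch ligand, had 2.

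In the Sox list Sox6 had 6, Sox7 had 3, and 3 genes, Sox5, Sox11 and Sox15, had 2 each. Among naive pluripotency genes, which maintain the embryonic stem cell state, Klf4 had 3 private sites and Zfp42 had 2, while Pou5f1 (the gene of Oct4) and Sox2 had 1 each. Nanog and Esrrb had none. The epithelial splicing gene Esrp1 had 3 and Cdh1, the E-cadherin gene, had 2. Col8a1 led the collagens with 5. The AP-1 list had 2 at Fosb and 1 each at Jun and Atf3, and the POU list had 2 at Pou2f1 and 1 at Pou3f1, the gene of Oct6, where the site had Sox2 in Oct4defSox2-SK cells at day 1. Sox2-occupied private sites lay near the starts of 10 of the 145 genes (993, 4.53%, of all genes), among them Vim and Sox13.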

How the data were processed

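The authors aligned paired-end ChIP-seq reads of transduced OG2-MEFs to mm10 with Bowtie2 (version 2.2.5 in the submitters' processing notes), filtered them by mapping quality, removed duplicates and called summits with MACS2, library by library, at a threshold of 0.0001. Each deposited summit carries the −log10 p-value of MACS2, neither adjusted nor scaled between libraries, so the depth of a library, which the files do not give, can change the length of its list and its scores. The Oct6 M151S list goes down to 2.30 and was called more loosely. The 3 inputs were not analysed here.

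The members, gene lists, motifs and tests were chosen with earlier results of these data known. Motifs were searched on both strands of GRCm38.p6, within 100 bp of a summit, and genes came from GENCODE M21. Promoters took precedence over exons and exons over introns. Named sites were the 10 highest private sites, the 5 highest with Sox2 in Oct4defSox2-SK at day 1, the 3 highest with Sox2 in 3 cocktails on each day, the 5 highest at coding promoters and the 3 highest with SoxOct and with MORE. Named genes were the 10 with most private sites in the body and up to 3 per list with most sites near a start. Other list genes, and the octamer-like palindrome, were named after their values were seen.

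Alternatives were the distance (50, 250 or 1000 bp), a score of at least 10, 1 summit per group within 300 bp, other membership lists, score deciles, equal Sox2 lists, motif stringency and window, a 5 kb promoter and leaving out Oct6 M151S sites. Leaving out private summits of peaks with a shared one was added after the data were seen. Python 3.11.15, numpy 2.4.6, pandas 2.3.3, scipy 1.17.1 and matplotlib 3.10.9 were used, and the procedure was tested on simulated data.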

Additional observations from a re-analysis of the deposited data

Results flagged for a closer look

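A summit of Oct6 M151S, a library used only to leave sites out in 1 alternative, lay within 100 bp of 671 private sites (4.08%, 3.79 to 4.39), against 0.219% (0.174 to 0.275) of positions 10 kb to either side. The share was 7.37% (6.96 to 7.81) at shared sites and 5.63% over all Oct4defSox2 sites. This library had another antibody and a looser threshold than the rest, and the part these had in its share was not tested.

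Sox2 at private sites moved in opposite directions between days 1 and 5 in 2 cocktails: it fell by 4.50 points in Oct4-SK cells and rose by 5.91 points in Oct4defSox2-SK cells. The difference between the cocktails was not tested, since each had 1 library per day, and the yields moved the same way, from 15222 to 5832 and from 5794 to 21563 summits.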

How the results depend on the processing

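Each group had 1 library, so intervals cover counting error among sites and no result was checked in a replicate. No paired analysis was possible because each group had 1 library and replicates could not be matched; the paired intervals pair sites, not samples. Of 44 results, each recomputed under those of 15 alternatives that apply to it (472 values), 22 kept their direction and their side of counting error in every one run, though often not their size, among them the SoxOct, MORE and octamer deficits against shared sites, the Sox excess at Sox2-occupied sites and the day 5 order of Oct4defSox2-SK above the other cocktails. The cause of the changes below was not tested. The number of private sites was 10684 at a distance of 1000 bp, 7324 with a score of at least 10, 24798 without Oct4 S151M and 26352 from Oct4 day 1 alone.

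Differences in percentage points follow, with P − S for private minus shared, P − F for private minus the windows 2 kb away and C − N for private sites with minus without Sox2. With 50 bp, CTCF P − S was −0.204, KLF P − S 0.340, AP-1 P − S −0.956, MORE P − F 1.28, intergenic P − S 0.966 and Sox2 of Oct4-SK minus Oct4defSox2-SK at day 1 0.230. With 250 bp, AP-1 was 1.17 (C − N) and −1.32 (P − S), CTCF P − S 0.363 and Sox2 of Oct6-SK at day 5 minus day 1 0.770. With private sites over 1000 bp away, AP-1 was 1.67 (C − N) and −1.21 (P − S), CTCF 0.479, RUNX −0.727 and Sox 0.0756 (P − S), and Oct6-SK day 5 minus day 1 0.861.

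With a score of at least 10, AP-1 was 1.40 (C − N) and 0.108 (P − S), KLF 0.309, RUNX −0.983, Sox 0.217, TEAD −0.0230, intron −0.0282, promoter 0.358 and Sox2 of Oct6-SK at day 5 −0.519 (P − S), and 41 list genes had a site. Standardised over score deciles, P − S was −0.773 for RUNX, 0.494 for Sox, −0.948 for introns, and for Sox2 −0.261 (Oct4-SK day 5), −0.143 (Oct6-SK day 1) and 0.599 (Oct6-SK day 5).

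Without Oct4 S151M, P − S was −0.446 for CTCF, −0.543 for KLF, −1.47 for Sox, −0.276 for TEAD, 0.890 for intergenic, −0.927 for intron and −0.220 for promoter sites, MORE P − F was 4.69, Sox2 of Oct4-SK minus Oct4defSox2-SK at day 1 was 1.25 and of Oct6-SK at day 5 minus day 1 −0.145. From Oct4 day 1 alone, P − S was 0.451 for CTCF, 0.454 for KLF, −1.43 for Sox, −0.627 for introns and 0.223 for Sox2 of Oct4defSox2-SK at day 1, MORE P − F was 5.18 and Sox2 of Oct4-SK minus Oct4defSox2-SK at day 1 was 1.56.

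With equal Sox2 lists, AP-1 C − N was 0.266, Sox2 of Oct4-SK minus Oct6-SK at day 5 −0.553, and day 5 minus day 1 was −0.444 in Oct4defSox2-SK and 0.614 in Oct6-SK cells. With motif windows of 50 bp, AP-1 was 1.44 (C − N) and −1.11 (P − S), Sox −0.616 and TEAD −0.0285 (P − S), and MORE P − F 0.173. MORE was −0.134 (C − N) and 0.0638 (P − F) with 1 mismatch fewer and 2.99 (P − F) with 1 more.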

Other observations

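The palindrome ATGCGCAT, an octamer-like word that was noticed in these windows and then counted in them, was at 193 private sites (1.17%, 1.02 to 1.35) and at 24 of 32904 windows 2 kb away (0.0729%, 0.0490 to 0.109). It was at 1.09% (0.889 to 1.34) of sites shared with Oct4 S151M only, an interval that overlaps that of private sites, more frequent at sites shared with wild-type Oct4 (4.30%, 3.82 to 4.84), and at 158 (1.48%, 1.27 to 1.73) of the private sites more than 1 kb from any other Oct4-antibody summit. None of the 1567 private sites with Sox2 in Oct4defSox2-SK cells at day 1 held it, which allows a share of up to 0.191% (3 counts of the total; the Wilson upper bound is 0.245%), while 193 of the 14885 without Sox2 did (1.30%, 1.13 to 1.49). A word chosen in this way on the same windows has no independent test.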
